A study of Mus musculus with 23 samples.

Results

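The adenosine signaling genes examined in the mouse hippocampus were 8 of the 19733 genes in the deposited table, all of which passed the filter on low values that left 15986 genes for testing. They encode the 4 adenosine receptors (*Adora1*, *Adora2a*, *Adora2b* and *Adora3*), the ecto-enzyme that makes extracellular adenosine (*Nt5e*), the transporter that moves it across the membrane (*Slc29a1*) and the enzymes that remove it (*Adk* and *Ada*). The set was chosen by gene symbol as a pathway, and *Adora2a* had been selected on its group difference in these same mice. The levels of *Adora2a* by group are therefore given as a description, with no test, and lend no support to the other members.

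The hippocampus of 23 wild-type mice was sequenced, with 9 Ctrl, 7 EtOH and 7 EtOH-UA animals. The methods describe male C57BL/6J mice acquired at 6 weeks of age. Ctrl mice received an AIN93M control liquid diet, and EtOH mice an AIN93M liquid diet with ethanol, each with a daily gavage of 0.05% carboxymethyl cellulose sodium. EtOH-UA mice received the ethanol diet and urolithin A, a gut microbial metabolite of ellagitannins, at 200 mg/kg/day in the same vehicle. Treatment ran for 16 weeks and was followed by 1 week of behavioral tests, with 4 mice housed per cage. There was no group given urolithin A with the control diet, so its difference could be measured only on top of ethanol. Levels are given as FPKM, mapped fragments scaled for transcript length and library depth. Their sum over genes differed between mice, so differences between mice in FPKM are relative to that scaling. Each library was 1 mouse, and the labels name no batch and no cage.

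Adenosine forms outside the cell when ecto-nucleotidases strip the phosphates from released ATP, and CD73, the product of *Nt5e*, removes the last of them. The A1 receptor couples to inhibitory G proteins and lowers transmitter release and excitability, and it is known as the abundant adenosine receptor of hippocampal neurons. The A2A and A2B receptors couple to stimulatory G proteins and raise cAMP, and A2A is best known from the striatum. The equilibrative transporter ENT1, encoded by *Slc29a1*, carries adenosine along its gradient and is a known target of acute ethanol, whereas adenosine kinase (*Adk*), which is abundant in astrocytes, and adenosine deaminase (*Ada*) clear it.

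The RefSeq promoter table of GRCm38.p6 held 16 starts for 7 of the 8 genes, *Adora2a* being the one not in it. The 250 bases before the start are shown for 3 receptors because these receptors spanned the widest range of level among the members, and their promoters differed in CpG content. Capitals mark the GC box GGGCGG or its reverse complement, searched on both strands with overlaps counted, and each sequence runs 5′ to 3′ on the strand of the gene.
Adora1, chr1:134235458-134235707, minus strand: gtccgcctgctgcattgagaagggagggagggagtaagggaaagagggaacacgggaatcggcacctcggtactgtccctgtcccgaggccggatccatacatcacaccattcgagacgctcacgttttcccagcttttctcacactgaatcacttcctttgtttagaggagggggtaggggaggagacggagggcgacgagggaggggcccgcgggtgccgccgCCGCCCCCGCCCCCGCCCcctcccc
Adora2b, chr11:62248734-62248983, plus strand: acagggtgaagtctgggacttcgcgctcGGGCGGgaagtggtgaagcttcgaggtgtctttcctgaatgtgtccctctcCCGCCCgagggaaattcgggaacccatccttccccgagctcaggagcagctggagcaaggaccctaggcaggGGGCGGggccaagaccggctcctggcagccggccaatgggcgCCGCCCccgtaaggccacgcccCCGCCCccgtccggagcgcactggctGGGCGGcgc
Adora3, chr3:105904171-105904420, plus strand: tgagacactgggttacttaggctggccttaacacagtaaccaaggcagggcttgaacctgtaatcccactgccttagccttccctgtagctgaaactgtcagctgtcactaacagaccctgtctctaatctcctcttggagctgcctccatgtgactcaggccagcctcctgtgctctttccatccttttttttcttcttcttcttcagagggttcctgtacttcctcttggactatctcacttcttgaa
The *Adora1* window held 3 GC boxes and 19 CpG dinucleotides, and the window at its other start (chr1:134234857-134235106) held 0 and 18. The *Adora2b* window held 6 GC boxes and 22 CpG, more CpG than 85.2% of the 32817 promoters in the table. The *Adora3* window held 0 GC boxes and 0 CpG. Over all promoters the median was 6 CpG, and 32.7% held a GC box. Among the other members the windows of *Nt5e* (4 GC boxes, 21 CpG), *Ada* (1 and 14) and both starts of *Adk* (2 and 15, then 3 and 24) held the motif, as did 4 of the 8 windows of *Slc29a1*, which made 10 of the 16 windows in all. The data do not bear on which start was used, and a match is a string of letters and not a bound site.

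*Adora1*, on chromosome 1 (134199215 to 134235457, minus strand, GRCm38), was the most abundant member at a mean of 48.4 FPKM over all mice, above 90.6% of the genes tested. *Adk* (chromosome 14, 21052574 to 21448569, plus strand) followed at 27.8 FPKM and *Slc29a1* (chromosome 17, 45585200 to 45599618, minus strand) at 6.79 FPKM. *Adora2b* (chromosome 11, 62248984 to 62266452, plus strand) and *Nt5e* (chromosome 9, 88327609 to 88372089, plus strand) were at 1.58 and 1.22 FPKM. The 3 lowest levels were those of *Adora2a* (chromosome 10, 75316877 to 75334792, plus strand) at 0.530 FPKM, *Ada* (chromosome 2, 163726571 to 163750239, minus strand) at 0.414 FPKM and *Adora3* (chromosome 3, 105904421 to 105908928, plus strand) at 0.403 FPKM, above 10.6% to 12.8% of the genes tested. In every one of the 23 mice *Adora1* was above *Adk*, *Adk* above *Slc29a1*, *Slc29a1* above *Adora2b*, and *Nt5e* above *Adora2a*. The neighbours *Adora2b* and *Nt5e* changed places in some mice (17 of 23 had more *Adora2b*), as did *Adora2a* and *Ada* (16 of 23 had more *Adora2a*), and *Ada* and *Adora3* did not separate (13 of 23 had more *Ada*).

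**Figure D1:**
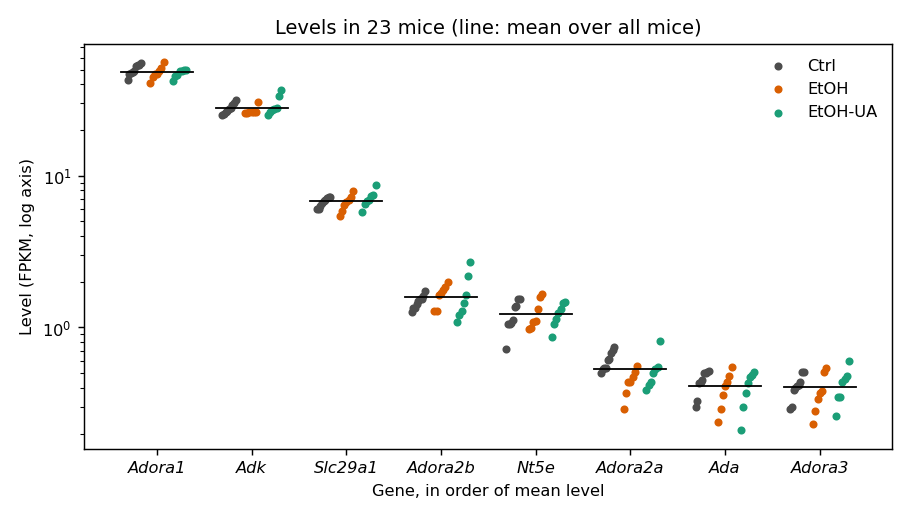
Level of each adenosine gene in each of the 23 mice, in FPKM on a log axis, with genes in order of their mean (line) and mice colored by group. *Adora1* and *Adk* sit at the top without touching, and the points of *Adora2a*, *Ada* and *Adora3* overlap.

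The ratio of *Adora1* to the other receptors was large in every mouse. Against *Adora2a* it ranged from 62.4 to 99.1 (median 89.2) in Ctrl mice, from 73.3 to 154 (median 109) in EtOH mice and from 55.0 to 119 (median 99.6) in EtOH-UA mice. Its ratio to *Adora2b* had medians of 33.4, 30.1 and 34.5 in the same order, and its ratio to *Adora3* 117, 134 and 111. Of the enzymes that remove adenosine, *Adk* exceeded *Ada* with median ratios of 61.0, 62.8 and 67.9. All these ranges overlapped between groups.

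Abundant members varied less between mice of a group than scarce ones. The residual SD on the log2 scale was 0.121 for *Adora1*, 0.137 for *Adk* and 0.154 for *Slc29a1*, below the median of 0.189 over all genes tested. It was 0.242 for *Adora2a* and between 0.291 and 0.301 for *Adora2b*, *Nt5e*, *Adora3* and *Ada*. Even steps in the low values of 123 single-transcript genes put 1 FPKM at about 17.2 fragments per kilobase (quartiles 15.4 and 18.9), a rough scale whose settings were chosen while seeing the values. On that scale *Ada* rested on about 12.1 fragments per mouse and *Adora3* on 8.46 to 16.4, depending on the transcript. *Adora2a* rested on 3.97 to 23.7 fragments, so that counting error alone would give a CV of 20.5% to 50.2%, against CVs between mice of 14.3%, 20.2% and 27.6% for Ctrl, EtOH and EtOH-UA. For *Nt5e* about 84.2 fragments gave a counting CV of 10.9%, below its CVs between mice of 17.9% to 22.5%.

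Some libraries and neighbouring tissue markers have to be known before groups are compared. The summed FPKM of 21 libraries lay between 327896 and 366930, and 2 EtOH-UA mice stood above them at 404609 and 379518. The first of these had the highest level of all 23 mice for *Adora2a* (0.82 FPKM), *Adora2b* (2.72), *Slc29a1* (8.69) and *Adk* (36.43), and the lowest for *Ada* (0.21), and the other was next for *Adk* (33.26). The 8 choroid plexus markers, led by *Ttr*, summed to 7.91 to 2981 FPKM in Ctrl mice (median 60.9), 70.8 to 5772 in EtOH mice (median 1283) and 16.1 to 7831 in EtOH-UA mice (median 1864). The 7 hippocampal neuron markers (*Neurod6*, *C1ql2* and others) summed to between 189 and 265 FPKM with none at 0 in any mouse, as the tissue label says. *Neurod6* led that sum at a mean of 104 FPKM, and some scarcer markers varied more. *Fibcd1* was at 3.62 to 33.4 FPKM in EtOH-UA mice and *Prox1* at 5.66 to 22.9 in Ctrl mice. In bulk tissue, fewer cells of a type and less RNA per cell cannot be told apart.

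Groups were compared in limma on log2(FPKM + 0.1), with p-values adjusted over all 15986 genes. Between EtOH and Ctrl mice 0% of the genes tested passed an adjusted p of 0.05, 3.05% had an unadjusted p under 0.05 and 0.00626% (1 gene) had groups that did not overlap. The corresponding shares were 0%, 3.27% and 0.0250% (4 genes) between EtOH-UA and EtOH mice, and 0%, 3.08% and 0.0125% (2 genes) between EtOH-UA and Ctrl mice. Of the 7 members tested, 0 had an adjusted p under 0.05 in any comparison, and 0 had an unadjusted p under 0.05 in limma. The groups overlapped for all 8 members in all 3 comparisons. The 21 adjusted p-values of those 7 members were at least 0.900, and their exact permutation p-values ranged from 0.169 to 0.999.

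**Figure D2:**
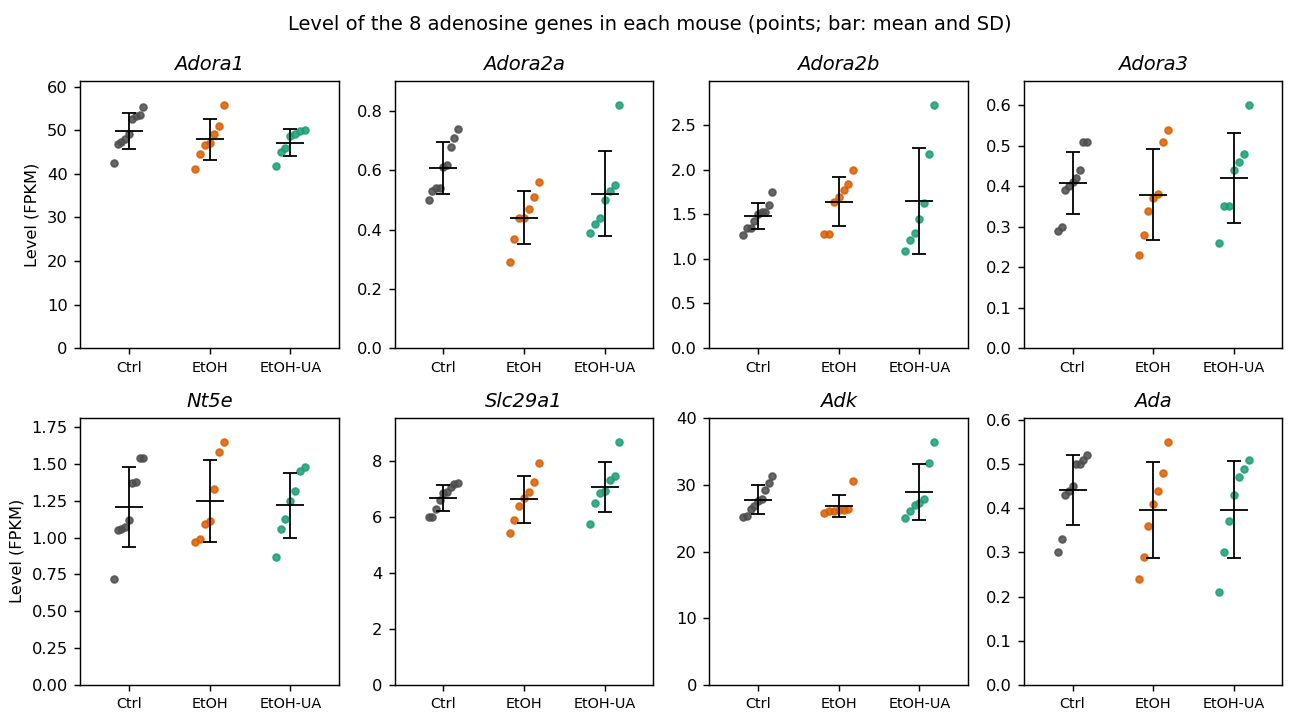
Level in FPKM of each of the 8 adenosine genes in 9 Ctrl, 7 EtOH and 7 EtOH-UA mice, on axes that start at 0, with points for mice sorted by level and bars for the mean and SD. The EtOH points of *Adora2a* sit low, and the highest point of *Adora2a*, *Adora2b*, *Slc29a1* and *Adk* is an EtOH-UA mouse.

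*Adora2a*, the A2A receptor, was at 0.50 to 0.74 FPKM in Ctrl mice, with a median of 0.61. The EtOH range was 0.29 to 0.56 (median 0.44), and the EtOH-UA range 0.39 to 0.82 (median 0.50). In all, 5 of the 7 EtOH mice were below every Ctrl mouse and 5 of the 9 Ctrl mice above every EtOH mouse, whereas EtOH-UA mice spread over both ranges. The means were 0.608 ± 0.0867 (SD, n = 9), 0.440 ± 0.0891 (n = 7) and 0.521 ± 0.144 (n = 7). The log2 fold change was -0.40 for EtOH against Ctrl mice, 0.19 for EtOH-UA against EtOH and -0.21 for EtOH-UA against Ctrl, the first of which helped to choose the gene. With a pseudocount of 1 in place of 0.1 the first value was -0.16. Leaving out the EtOH-UA mouse with the highest summed FPKM moved the value against EtOH mice to 0.09 and that of EtOH-UA against Ctrl to -0.31.

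The neighbours of *Adora2a* in its best known cell type did not follow a single direction. The other 11 markers of striatal projection neurons summed to 88.4 to 116 FPKM (Ctrl), 90.1 to 111 (EtOH) and 95.7 to 123 (EtOH-UA), and none was at 0 in any mouse. That sum was led by *Ppp1r1b* and *Penk*, at means of 26.8 and 20.9 FPKM over all mice. *Drd2* and *Gpr6* averaged 0.674 and 0.513 FPKM in Ctrl mice, so the sum says little about such scarce markers. *Drd2*, the D2 dopamine receptor of the striatal neurons that carry A2A, had a log2 fold change of -0.16 (SE 0.11) for EtOH against Ctrl mice, with an adjusted p of 0.999. *Gpr6*, an orphan receptor of the same neurons, had 0.45 (SE 0.21), also with an adjusted p of 0.999. Across mice within groups, *Adora2a* had r = 0.18 and rho = 0.30 with the striatal list (adjusted p 0.694 and 0.452 over the 64 relations described later). Counting error alone could give much of the spread of *Adora2a* between mice, so a low r here cannot show whether it follows the list. The part of striatal tissue in the level of *Adora2a* was not tested beyond these values.

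*Adora1*, the A1 receptor, ranged from 42.41 to 55.31 FPKM in Ctrl mice (median 49.14), 41.04 to 55.74 in EtOH mice (median 47.03) and 41.73 to 49.98 in EtOH-UA mice (median 48.70). The ranges overlapped, although 4 of the 9 Ctrl and 2 of the 7 EtOH mice were above every EtOH-UA mouse, with means of 49.8 ± 4.14 (SD, n = 9), 47.9 ± 4.71 (n = 7) and 47.2 ± 3.06 (n = 7). Its log2 fold changes were -0.06 (95% CI -0.18 to 0.07) for EtOH against Ctrl, -0.02 (-0.15 to 0.12) for EtOH-UA against EtOH and -0.08 (-0.20 to 0.05) for EtOH-UA against Ctrl mice. Those were among the narrowest intervals of the 7 genes tested.

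*Adora2b*, the low-affinity receptor coupled to stimulatory G proteins, was at 1.27 to 1.75 FPKM in Ctrl mice (median 1.50), 1.28 to 2.0 in EtOH mice (median 1.69) and 1.09 to 2.72 in EtOH-UA mice (median 1.45). Of the 7 EtOH mice 3 were above every Ctrl mouse, and EtOH-UA mice fell on both sides, with 2 below and 2 above every Ctrl mouse. The log2 fold change for EtOH against Ctrl was 0.14 (95% CI -0.16 to 0.43, exact permutation p = 0.169). For EtOH-UA against Ctrl it was 0.10 (-0.20 to 0.39), and without the EtOH-UA mouse of highest summed FPKM -0.03. *Adora3*, which encodes the A3 receptor, ranged from 0.23 to 0.60 FPKM over all mice and had log2 fold changes of -0.10 (95% CI -0.42 to 0.21), 0.13 (-0.21 to 0.46) and 0.02 (-0.30 to 0.34) in the 3 comparisons. *Adora3* shares its locus and strand with *Tmigd3* (mean 0.285 FPKM), so fragments may have been split between them. The locus of *Adora1* overlaps *Mybph* on the opposite strand, at a mean of 0.153 FPKM.

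*Nt5e*, which encodes CD73, was at 0.72 to 1.54 FPKM in Ctrl mice (median 1.12), 0.97 to 1.65 in EtOH mice (median 1.11) and 0.87 to 1.48 in EtOH-UA mice (median 1.25). Each group held both low and high mice, and the log2 fold changes were 0.05 (95% CI -0.25 to 0.35), -0.02 (-0.33 to 0.30) and 0.03 (-0.27 to 0.33). *Slc29a1*, the ENT1 transporter gene, averaged 6.68 ± 0.477 FPKM (SD, n = 9) under the control diet, 6.64 ± 0.834 (n = 7) under ethanol and 7.08 ± 0.911 (n = 7) under ethanol with urolithin A. For EtOH against Ctrl its log2 fold change of -0.02 had an interval of -0.18 to 0.14. For EtOH-UA against EtOH the value was 0.09 (-0.08 to 0.26), and for EtOH-UA against Ctrl 0.08 (-0.08 to 0.24). Without the EtOH-UA mouse of highest summed FPKM these were 0.04 and 0.02.

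*Adk*, the adenosine kinase gene, lay between 25.22 and 31.29 FPKM in Ctrl mice (median 27.57). The EtOH-UA range was wider, 25.01 to 36.43 (median 27.33). In EtOH mice it was between 25.75 and 26.34 FPKM in 6 mice and at 30.56 in the other. Of the 7 EtOH mice 6 were below the Ctrl median, within the range of the Ctrl group. The log2 fold change for EtOH-UA against EtOH was 0.11 (95% CI -0.04 to 0.25), and it was -0.0041 without both EtOH-UA mice of high summed FPKM. For EtOH-UA against Ctrl it went from 0.05 to -0.06 without them. *Ada*, the deaminase gene, ranged from 0.21 to 0.55 FPKM over all mice, and its log2 fold change was -0.15 (-0.47 to 0.18) for EtOH against Ctrl, 0.00 (-0.34 to 0.34) for EtOH-UA against EtOH and -0.14 (-0.47 to 0.18) for EtOH-UA against Ctrl.

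**Figure D3:**
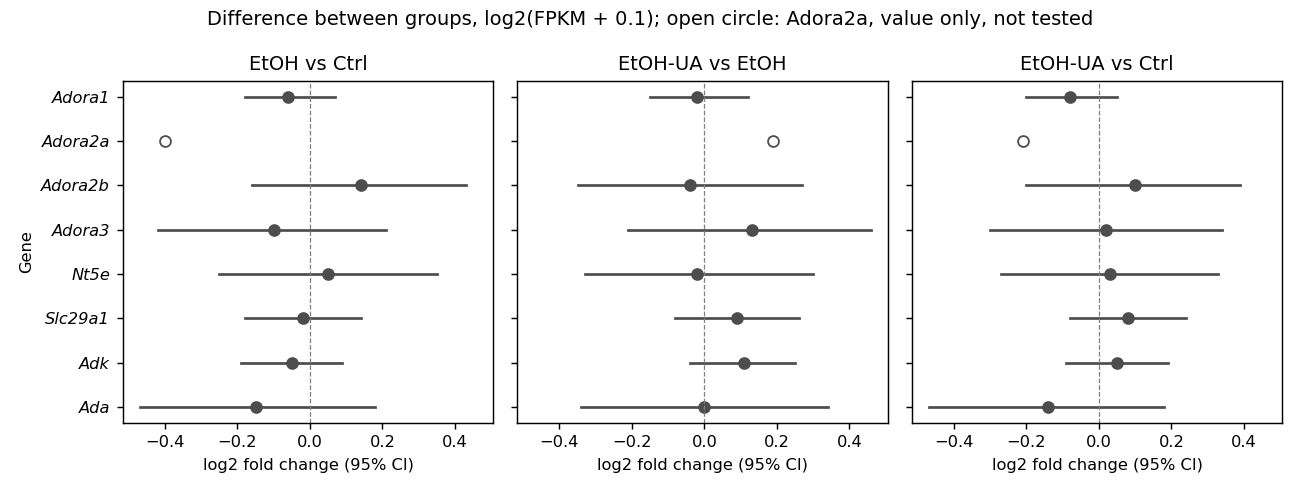
Log2 fold change of each adenosine gene in the 3 comparisons, on the log2(FPKM + 0.1) scale, with 95% confidence intervals from limma for the 7 genes tested. Those intervals include 0 in every comparison. The open circles of *Adora2a* are values alone, since it was not tested, and the first is at -0.40.

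A further 52 genes that make, move or degrade adenosine or act beside its receptors were listed, and 47 of them were tested. In each comparison 0 of the 47 had an adjusted p under 0.05 in limma, and 1 had an unadjusted p under 0.05, against the shares of 3.05%, 3.27% and 3.08% over all genes. For EtOH against Ctrl mice 17 were higher and 30 lower, with a median log2 fold change of -0.014 beside -0.003 over all genes. Over all genes 7765 were higher and 8221 lower. For both comparisons of EtOH-UA mice 27 were higher and 20 lower, with medians of 0.014 against EtOH and 0.021 against Ctrl mice, beside 0.003 and 0.002. Over all genes 8181 were higher and 7805 lower against EtOH mice, and 8179 and 7807 against Ctrl mice. The direction of the list was not tested.

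Among the ecto-enzymes that precede CD73, *Entpd1* (CD39) and *Entpd2*, which cut ATP and ADP, were at means of 3.02 and 4.91 FPKM and had log2 fold changes of -0.04 and -0.03 for EtOH against Ctrl mice. Of the genes listed for ATP release, *Panx1* (the channel pannexin 1) was at 6.10 ± 0.385 FPKM (SD, n = 9) in Ctrl and 5.57 ± 0.518 (n = 7) in EtOH mice, a log2 fold change of -0.13 (SE 0.08, adjusted p 0.999). *Panx2* had a log2 fold change of -0.07 (SE 0.07). Inside the cell, the most abundant 5′-nucleotidases *Nt5c2* and *Nt5c3* were at 22.4 and 22.2 FPKM, and *Nt5c3* had 0.15 (SE 0.08, adjusted p 0.900) for EtOH-UA against EtOH mice.

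Of the other transporters, *Slc29a2* (ENT2) was at 3.96 FPKM with a log2 fold change of -0.07 (SE 0.08) for EtOH against Ctrl. *Slc29a4*, a monoamine and adenosine transporter, averaged 7.54 ± 2.08 FPKM (SD, n = 9) in Ctrl mice, 9.89 ± 2.72 (n = 7) under ethanol and 9.82 ± 4.36 (n = 7) with urolithin A. Its EtOH against Ctrl value was 0.40 (log2, SE 0.22, adjusted p 0.999). The choroid plexus level given above also differed between groups, and its part in this value was not tested. The concentrative transporters *Slc28a1* and *Slc28a2* were below the filter. Of the purine salvage and breakdown genes, *Hprt* (102 FPKM) and *Gda* (64.0 FPKM) were the most abundant, and *Gda*, guanine deaminase, had a log2 fold change of -0.20 (SE 0.12, adjusted p 0.900) for EtOH-UA against EtOH mice. *Uox*, urate oxidase, was the one listed gene with an unadjusted p under 0.01. It averaged 0.116 ± 0.0849 FPKM (SD, n = 9) in Ctrl mice, 0.317 ± 0.209 (n = 7) under ethanol and 0.267 ± 0.140 (n = 7) with urolithin A, with log2 fold changes of 0.90 (SE 0.28, limma p 0.00329, adjusted p 0.999) and 0.77 (SE 0.28, limma p 0.00964, adjusted p 0.999) against Ctrl mice. The Ctrl mean of *Uox* was close to the filter and to the pseudocount, both 0.1, so the size of these fold changes rests on that pseudocount.

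The genes named next to the receptors in the signaling chain were, by choice, the 2 most abundant of each role. Others of these roles were scarcer, such as *Adcy8* at 4.86 FPKM among the A2A partners. Of the A1 partners, the inhibitory G protein genes *Gnao1* and *Gnai1* were at 170 and 71.0 FPKM with log2 fold changes of 0.02 and -0.07 for EtOH against Ctrl mice. Of the A2A partners, *Gnas* was at 559 FPKM and *Adcy1*, an adenylyl cyclase, at 102 FPKM, with -0.05 and 0.06. *Ahcyl1* and *Ahcyl2*, relatives of the hydrolase that releases adenosine from S-adenosylhomocysteine, were at 126 and 66.1 FPKM, with -0.01 and 0.09.

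To see what the members varied with among mice of a group, each was correlated with the summed level of 8 marker lists over the 23 mice, after group means were removed. Permutation p-values were adjusted over all 64 relations. The mice fell into 2 clusters in the level of the choroid plexus list, so its relations are given separately below, over all mice and within clusters. Of the 56 relations with the other 7 lists, 5 had an adjusted p under 0.05 by Pearson's r, and 3 of these also by Spearman's rho.

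*Adora1* followed the hippocampal neuron list, with r = 0.67 and rho = 0.72 (adjusted permutation p 0.0124 and 0.00992). The relation had r = 0.56 without the 2 mice farthest from the median, and it stayed past the threshold in each of the 23 fits that left out 1 mouse. *Adk* followed the endothelial list (r = 0.74, rho = 0.71, adjusted permutation p 0.00512 and 0.00992, r = 0.67 without the 2 farthest mice), again in each of the 23 fits. Without both EtOH-UA mice of highest summed FPKM, the 2 highest for *Adk*, these relations had r = 0.71 for *Adora1* and r = 0.67 for *Adk*, and they were the 2 of the 64 then past the threshold. The relation of *Adk* with the astrocyte list had r = 0.12 and rho = 0.27 (adjusted permutation p 0.814 and 0.480). *Adk* also rose with the summed FPKM of the library (r = 0.84, given below). No relation with a marker list was adjusted for that sum, so whether the 2 relations of *Adk* are separate was not tested.

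The other 3 relations depended on single mice. *Adk* had r = 0.68 and rho = 0.64 with the microglial list (adjusted permutation p 0.00832 and 0.0243), and r = 0.54 with an adjusted p of 0.129 without the EtOH-UA mouse at 404609 summed FPKM. *Slc29a1* had r = 0.63 and rho = 0.53 with the same list (0.0234 and 0.0922), r = 0.44 without the 2 farthest mice, and r = 0.51 (adjusted p 0.139) without that EtOH-UA mouse. It also lost the threshold without the EtOH-UA mouse at 333801 (r = 0.55, adjusted p 0.0688) or the EtOH mouse at 329921 (r = 0.59, adjusted p 0.0501). *Adora2b* had r = 0.59 and rho = 0.53 with the list of fibroblasts and meninges (0.0321 and 0.0922), r = 0.47 without the 2 farthest mice, and it kept the threshold in 16 of the 23 fits that left out 1 mouse, with r between 0.50 and 0.64. The lowest of these, with an adjusted p of 0.139, again left out the EtOH-UA mouse at 404609.

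**Figure D4:**
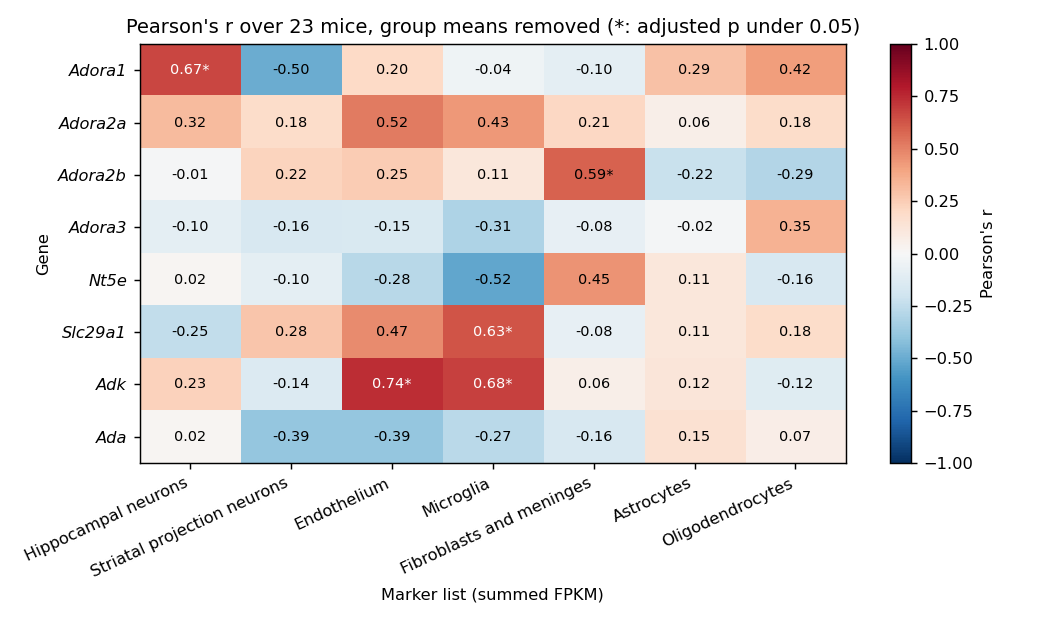
Pearson's r between each adenosine gene (rows) and the summed level of 7 marker lists (columns) over 23 mice, with group means removed and stars for an adjusted permutation p under 0.05. The darkest cells are *Adk* with endothelium (0.74), *Adk* with microglia (0.68) and *Adora1* with hippocampal neurons (0.67).

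Over all 23 mice, with group means removed, *Nt5e* had r = 0.60 and rho = 0.60 with the choroid plexus list (adjusted permutation p 0.0321 and 0.0453). *Adora2b* had r = 0.55 and rho = 0.50 with it (0.0485 and 0.142). The threshold was kept in 16 of the 23 fits that left out 1 mouse for *Nt5e* and in 10 for *Adora2b*. In that list 9 mice lay between 7.91 and 81.2 summed FPKM (5 Ctrl, 1 EtOH and 3 EtOH-UA) and 14 between 489 and 7831 (4 Ctrl, 6 EtOH and 4 EtOH-UA). The split into these clusters was made after seeing the data. *Adora2b* had a median of 1.29 FPKM in the 9 mice and 1.63 in the 14, and *Nt5e* 1.06 and 1.38, with overlapping ranges for both. Group means were not removed within clusters, so the relations there mix differences between groups with those within them. Within the 14 mice *Adora2b* rose with the choroid plexus level, with r = 0.77 (permutation p = 0.00132, adjusted p 0.0211 over the 16 relations of 8 members in 2 clusters). The rank correlation there was rho = 0.65 (adjusted p 0.223), and r was 0.52 without the 2 farthest mice. The EtOH-UA mouse at 404609 summed FPKM was the highest in both, at 7831 for the choroid plexus list and 2.72 for *Adora2b*. Within the 9 mice *Adora2b* had the opposite sign, r = -0.65 (exact permutation p = 0.0604, adjusted p 0.270). *Nt5e* had r = 0.50 in the 9 mice (exact permutation p = 0.168) and r = -0.16 in the 14 (permutation p = 0.590). The difference in choroid plexus level between groups stands beside the values of *Adora2b* above, and its part in them was not tested.

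The members were also set against the summed FPKM of the library, a choice made after seeing the data. *Adk* rose with it (r = 0.84, rho = 0.66, adjusted permutation p 0.000160 and 0.00292 over 8 relations) and had r = 0.58 without the 2 mice farthest from the median. *Nt5e* fell with it, with r = -0.64 and rho = -0.69 (adjusted permutation p 0.00360 and 0.00292), and r = -0.68 without the 2 farthest mice. Both held in each of the 23 fits that left out 1 mouse. The relations of *Adora2a* (r = 0.51) and *Slc29a1* (r = 0.49), each with an adjusted p of 0.0357 by Pearson's r and 0.129 by Spearman's rho, fell to r = 0.20 and r = 0.28 without the EtOH-UA mouse at 404609 (adjusted p 0.586 and 0.434). That of *Adora2a* also lost the threshold without the EtOH mouse at 366930, with r = 0.48 and an adjusted p of 0.0522. What sets the summed FPKM of a library was not tested.

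**Figure D5:**
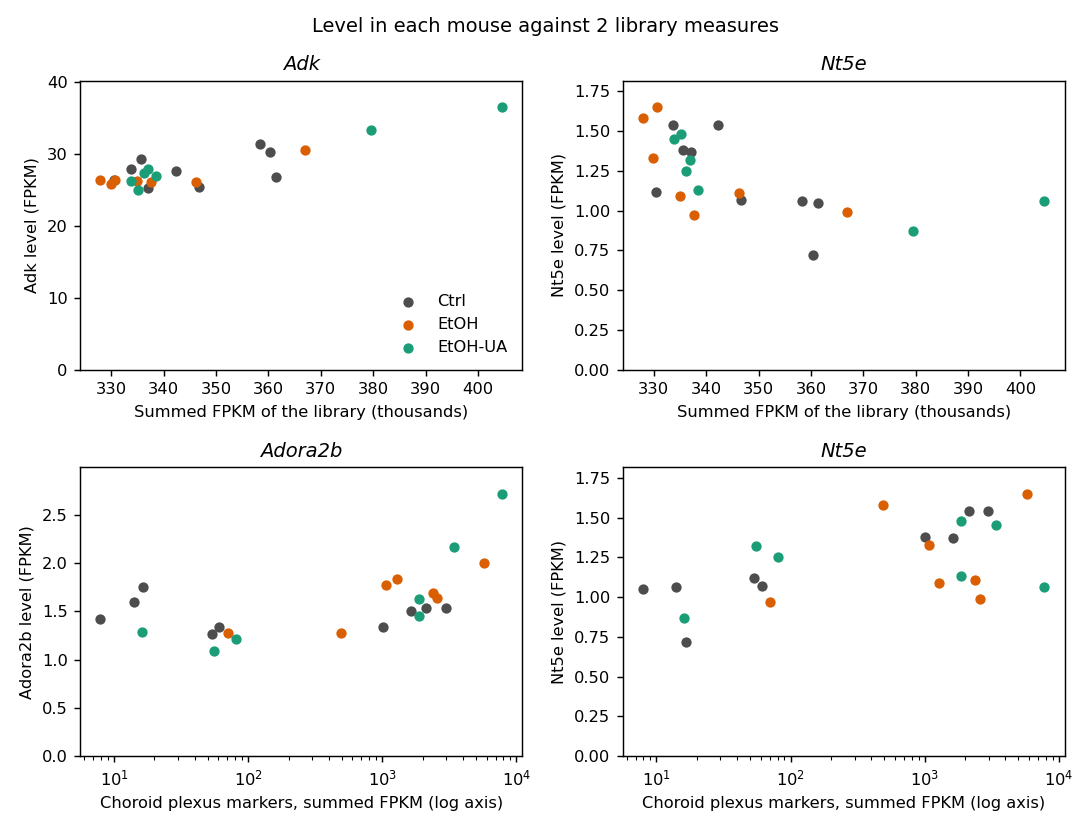
Level in FPKM of *Adk* and *Nt5e* against the summed FPKM of the library (top), and of *Adora2b* and *Nt5e* against the summed FPKM of 8 choroid plexus markers on a log axis (bottom), with 1 point per mouse colored by group. *Adk* rises and *Nt5e* falls with summed FPKM, and the choroid plexus level splits the mice into clusters of 9 and 14.

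Of the 28 pairs of members, 1 had an adjusted permutation p under 0.05. *Adora2a* and *Ada* ran in opposite directions (r = -0.63, rho = -0.53, adjusted p 0.0308 and 0.288), but r was -0.35 without the 2 mice farthest from the median of *Ada*. Without the EtOH-UA mouse at 404609, which had the highest *Adora2a* and the lowest *Ada*, r was -0.46 (adjusted p 0.282), and the threshold was kept in 9 of the 23 fits that left out 1 mouse. The relation thus rested on few mice.

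As a description, the genes most like each member were ranked by Pearson's r of within-group deviations over the 23 mice, among the 14022 genes that averaged 0.5 FPKM or more. *Adora1* was closest to *Galnt17* (0.84), *Arhgef17* (0.83), *Il16* (0.82), *Tanc1* (0.82) and *B3galt5* (0.81), and without both EtOH-UA mice of high summed FPKM these values were between 0.84 and 0.86. *Adk* was closest to the ribosomal protein gene *Rpl4* (0.89), *Llph* (0.89), *Gstm5* (0.88), *Btf3* (0.88) and *Mdk* (0.88), values that went to between 0.68 and 0.75 without those mice. *Adora2b* was closest to *C1qtnf5* (0.87), *Tspan33* (0.86), *Crhr2* (0.85), *Spint2* (0.85) and *Fads3* (0.83), or 0.75 to 0.80 without those mice. *Nt5e* was closest to *Prg4* (0.85), *Slc16a6* (0.83), *Slco5a1* (0.83), the phosphodiesterase gene *Pde5a* (0.83) and *Nipal2* (0.82), or 0.80 to 0.91 without those mice.

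For the other 4 members the highest r was between 0.72 and 0.78. Without both EtOH-UA mice of high summed FPKM, the values below were 0.56 to 0.71 for *Adora2a* and 0.60 to 0.69 for *Adora3*. They were then 0.50 to 0.67 for *Ada* and 0.64 to 0.75 for *Slc29a1*. *Adora2a* was closest to *Tmem107* (0.77), *Hmgn5* (0.77), *Lsm14a* (0.75), *B2m* (0.73) and *Sybu* (0.73), and *Adora3* to *Kremen1* (0.72), *Yeats2* (0.72), *1700028P14Rik* (0.70), *Dusp16* (0.69) and *Nbas* (0.69). For *Ada* they were *Slc17a8* (0.72), *Cabp4* (0.68), *Taok3* (0.68), *Rbms3* (0.66) and *Gm7102* (0.66). *Slc29a1* was closest to *Gm9631* (0.78), *Mphosph6* (0.78), *Ccpg1os* (0.76), the potassium channel gene *Kcnj8* (0.73) and *Rnaseh1* (0.73). No striatal marker was among the 5 genes most like *Adora2a*. The counting CV of *Adora2a* (20.5% to 50.2%) overlapped its CVs between mice (14.3% to 27.6%). Its ranking therefore cannot show whether it follows such markers.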

How the data were processed

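Hippocampal RNA from 23 mice (9 Ctrl, 7 EtOH, 7 EtOH-UA) was sequenced. The authors deposited 1 table of FPKM per gene and mouse, to 2 decimals, on mm10. Their processing notes name HISAT2 2.1.0, Bowtie2 2.2.5, RSEM 1.2.8 and StringTie, among others. The labels say total RNA and the methods poly(A)+ RNA. Columns were placed in groups by their names, 0 columns of values were left unused, and total reads per library are not given in the sources used here, so precision was judged from the spread between mice and from a rough fragment scale.

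The members and the gene lists were chosen with earlier results of these data known. Values were taken as log2(FPKM + 0.1). Genes averaging 0.1 FPKM or more were fitted in limma 3.58.1 (R 4.3.3) as 1 model of 3 groups with an intensity trend, with Benjamini-Hochberg adjustment across the 15986 genes. Members other than *Adora2a* also had an exact permutation test (two-sided, group means) with 11440 splits against Ctrl mice and 3432 between EtOH-UA and EtOH mice. Correlations used deviations from group means and 100000 two-sided permutations of the mice, within the choroid plexus clusters log2 values as they were, and over 9 mice all pairings. The code was tested on simulated data. All members were named, as were the 2 most abundant tested genes of each role in the pathway list, any listed gene with an adjusted p under 0.05 or else an unadjusted p under 0.01, and the 5 genes most like each member. *Gpr6* and *Drd2* were chosen after their values were seen. Coordinates and promoters come from RefSeq on GRCm38.p6, and transcript lengths and overlaps from GENCODE on the same build. Alternatives changed the pseudocount, filter, scaling, weights and mice. The p-values assume that mice are independent, and cages are not labelled.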

Additional observations from a re-analysis of the deposited data

Results flagged for a closer look

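In 1 of 24 groups of values (8 genes in 3 groups), a mouse stood apart from the rest of its group by a gap larger than Dixon's critical value at the 95% level. *Adk* in EtOH mice was at 30.56 FPKM in 1 mouse and between 25.75 and 26.34 FPKM in the other 6, so that the gap took 0.868 of the range of the group on the log2 scale. Chance flags about 1 in 20 such groups, or 1.20 of 24. That library also had the third highest summed FPKM of the series, 366930.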

How the results depend on the processing

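No paired analysis was possible because the columns carry mouse numbers that are not shared between groups. The main counts of genes past the threshold were 0. Array quality weights gave 1 for EtOH against Ctrl mice, and fits that left out 1 mouse gave 0 to 1 in each comparison. Relations of members with marker lists past the threshold went from 7 to 2 without both EtOH-UA mice of highest summed FPKM (an alternative chosen after seeing the data), and to between 3 and 9 without 1 mouse. Those between members went from 1 to 0 without both mice and with a pseudocount of 1, and to 0 to 2 without 1 mouse. Of 24 log2 fold changes of members 13 kept their sign under every alternative run. The other 11 changed it in at least 1, the sum being 45 of 783 alternative values, all of members with no test past the threshold.

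Without both EtOH-UA mice the log2 fold change turned to 0.0017 for *Adora1*, 0.10 for *Nt5e* and -0.0041 for *Adk* (EtOH-UA against EtOH), and to -0.00089 for *Adora2b* and -0.06 for *Adk* (EtOH-UA against Ctrl). Array quality weights gave 0.05 for *Adora1* and 0.07 for *Nt5e* against EtOH, and -0.03 for *Adk* against Ctrl. Quantile normalization gave -0.02 for *Nt5e* (EtOH against Ctrl) and 0.03 (EtOH-UA against EtOH). For *Ada* (EtOH-UA against EtOH) a pseudocount of 0.01 gave -0.0023 and upper-quartile scaling -0.02. Leaving out 1 mouse at a time turned the sign in these ranges. For EtOH-UA against EtOH they were -0.05 to 0.02 for *Adora1*, -0.17 to 0.04 for *Adora2b*, -0.07 to 0.05 for *Nt5e* and -0.09 to 0.11 for *Ada*. For EtOH-UA against Ctrl they were -0.03 to 0.18 for *Adora2b*, -0.05 to 0.1 for *Adora3*, -0.05 to 0.1 for *Nt5e* and -0.0031 to 0.09 for *Adk*. For EtOH against Ctrl they were -0.03 to 0.1 for *Nt5e* and -0.06 to 0.03 for *Slc29a1*. The cause was not tested.

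A pseudocount of 1 moved the log2 fold change of *Adora2a* (EtOH against Ctrl) from -0.40 to -0.16, since it exceeds the level of the gene. A filter at a mean of 1 FPKM removes *Adora2a*, *Adora3* and *Ada*, so it gave no value for them.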
